A study of Gossypium hirsutum with 6 samples.

Results

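Gene expression in developing fiber of upland cotton (Gossypium hirsutum cv. TM1) was compared between the secondary cell wall (SCW) phase and the primary cell wall (PCW) phase. The PCW phase was represented by fiber at 8, 10 and 14 days post-anthesis (dpa) and the SCW phase by fiber at 21 and 24 dpa, while fiber at 17 dpa, between the phases, was left out of the contrast and set beside it. All 6 stages came from greenhouse plants of this 1 cultivar, and each stage was hybridized in a 2-colour loop of oligonucleotide arrays and expressed as a log2 ratio to fiber at 5 dpa, which cancels in the difference between phases. For every row of the table of profiles, the mean of the 3 PCW stages was subtracted from the mean of the 2 SCW stages. Of 12263 entries, 12238 carried the GA_ prefix of the fiber EST probes, 380 of these had no values, and 11858 with values at all 6 stages formed the comparison. The remaining 24 entries with values were control features. Only 1 profile a stage was deposited, so the stages of a phase served as its repeated profiles (3 against 2). The p-values below therefore measure the spread between stages of a phase and not between plants. Phase and fiber age cannot be told apart in this design. The study places elongation up to 21 dpa and secondary wall synthesis from 14 dpa on. Fiber at 14 and 21 dpa thus falls where these stages overlap, and the phase labels are not sharp.

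A cotton fiber is a single cell that grows from the seed coat epidermis. During the PCW phase it elongates while turgor stretches a thin, extensible wall, and it needs membrane lipid, vesicle traffic and enzymes that loosen the wall. During the SCW phase elongation slows and the cell lays down nearly pure cellulose, made at the plasma membrane by cellulose synthase complexes from UDP-glucose that sucrose synthase can supply. Transcripts measured in bulk fiber RNA do not separate a change per cell from a change in the share of cells at a given step.

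FbL2A and GhCesA-1, control features for late fiber, were higher at both SCW stages than at every PCW stage. A further cellulose synthase feature, GhCesA-2, overlapped between the phases. FbL2A, a transcript known from cotton fiber in secondary wall deposition, is a control feature outside the GA_ rows and was described without a test. Its log2 ratios were -0.50, 0.63 and 1.42 at 8, 10 and 14 dpa, 1.19 at 17 dpa, and 4.88 and 7.83 at 21 and 24 dpa. GhCesA-1, a catalytic subunit of the secondary wall cellulose synthase, is also a control feature and stood at 2.98, -2.14 and -1.70, then -1.93, then 3.81 and 7.30 at the same stages. Both features were higher at 21 and 24 dpa than at every PCW stage, with differences of 5.84 and 5.85 on the log2 scale, although GhCesA-1 exceeded the buffer spots in only 3 of 12 scanner files and FbL2A in 7. GhCesA-2 exceeded them in all 12 and stayed between 0.26 and 0.54 through 17 dpa, with 0.36 at 21 dpa and 1.71 at 24 dpa, so that the phases overlapped. No described row matched the lists of photosynthesis, seed storage or cell division genes, so the descriptions could not show whether other tissue was present. The leaf control features for chlorophyll a/b-binding proteins differed by -0.24 to 0.68 between the phases.

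The phases differed in small steps in most rows and by more than 2-fold in a minority. The median difference over all 11858 rows was -0.02 on the log2 scale, and the middle 50% of rows lay between -0.34 and 0.29. All 21 and 24 dpa values lay above all PCW values in 2573 rows (21.7%) and below them in 3003 rows (25.3%), 47.0% together. With a difference of at least 2-fold as well, 442 rows were higher in the SCW phase (3.73%) and 477 were lower (4.02%), 7.75% together. These counts are descriptions, since an exact permutation test of 2 against 3 stages has 10 arrangements and cannot give a p below 0.1. The members just inside the limit differed by 1.001 and -1 on the log2 scale, and those just outside by 0.9998 and -0.9976. At 4-fold the counts were 86 higher and 64 lower, and at 8-fold they were 28 and 8.

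**Figure D1:**
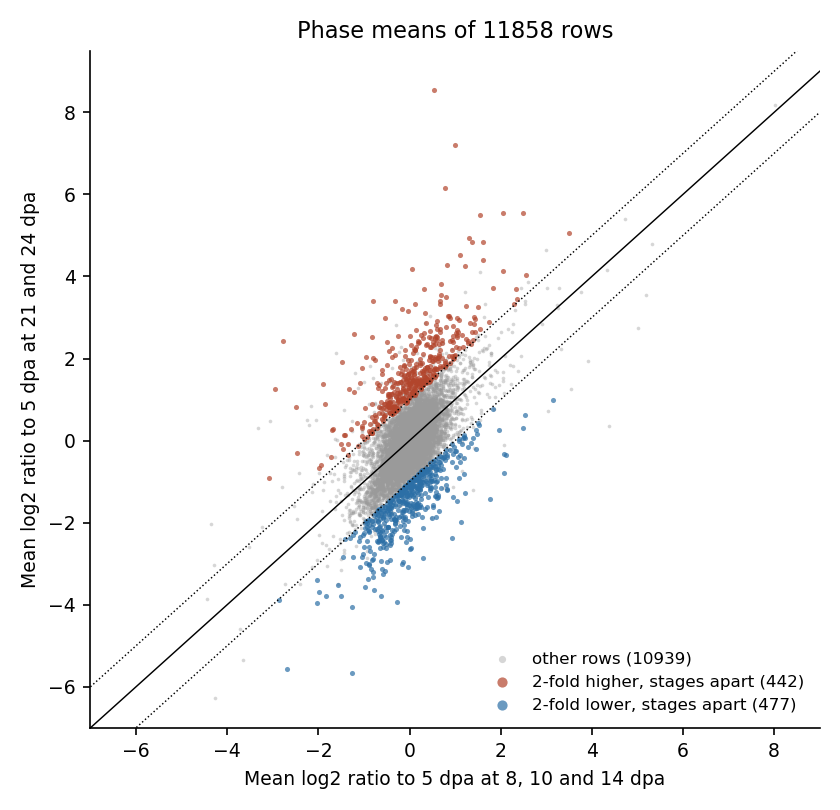
Mean log2 ratio to 5 dpa at 21 and 24 dpa (vertical axis) against the mean at 8, 10 and 14 dpa (horizontal axis) for 11858 rows; the solid line marks equal means and the dotted lines a 2-fold difference. Rows whose stages do not overlap and differ at least 2-fold are red (442 higher) or blue (477 lower), and the rows farthest from the lines lie above them.

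The 24 dpa profile stood apart from the other 5. Its SD over all rows was 1.06, against 0.53 to 0.77 for the other stages, and 1 of the 2 scanner images deposited with the 24 dpa sample had a median background-subtracted signal of 34.2, against 163 to 614 for the other 11 images. Of the 442 rows that were higher, 249 lay 2-fold from the PCW mean at both SCW stages and 169 at 24 dpa alone. Of the 477 rows that were lower, 233 did so at both stages and 226 at 24 dpa alone. With 21 dpa as the only SCW stage, 394 rows were higher and 433 lower by the same criteria, of which 273 and 251 were among the rows counted with both stages. Where 24 dpa moved the difference of a gene named below by more than 1.5 times, the difference with 21 dpa alone is given beside it.

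The limma test of SCW against PCW, with Benjamini-Hochberg adjustment over all 11858 rows, called 1 row higher (0.00843%) and 0 rows lower (0%) at an adjusted p below 0.05. At an unadjusted p below 0.05 there were 1141 higher and 1533 lower rows, and at an adjusted p below 0.1 there were 66 and 86. The called row, GA_10dpa_fiberEST_00742, has no description. Its log2 ratios were -2.88, -3.09 and -2.86 at the PCW stages, -2.25 at 17 dpa, and 1.43 and 1.07 at 21 and 24 dpa, a difference of 4.19 (SE 0.18, adjusted p = 0.0243 by limma). The stages of each phase lay close together and far from the other phase. Its spots exceeded the buffer spots in 0 of 12 scanner files. The call was lost when any 1 of the PCW stages was left out, with differences of 4.12 to 4.24, and with quantile normalization, with a difference of 4.36. It was also lost with 17 dpa counted as an SCW stage, where the difference was 3.02.

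The number of calls depended on which rows were tested together. When the fit was restricted to the 4195 rows that exceeded the buffer spots in all 12 scanner files, limma called 184 rows higher (4.39%) and 250 lower (5.96%), with a median size of 0.88 on the log2 scale. Unadjusted p was below 0.05 in 1443 of them. Rows that lose their signal in a phase cannot enter this fit. A second change of similar effect was leaving out 21 dpa, which gave 838 higher and 978 lower calls over all rows, whereas leaving out any other stage gave 0 or 1 in each direction. Below, the adjusted p of a gene is from the fit of all rows by limma unless the restricted fit is named, and "passed" refers to an adjusted p below 0.05.

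Gene descriptions came from the study's annotation of 124 probes with values, which the study had selected, on these samples and those of a second species, for the distance between the species at 17 and 24 dpa and for regulation during development, and 76 of the probes (80 entries) carried a usable description. Counts over them are therefore not independent evidence of a direction. Of the 80 entries, 19 were 2-fold higher without overlap and 16 were 2-fold lower, against 3.73% and 4.02% of all rows. Their median difference was 0.06. In the restricted fit, 42 of the entries were tested, of which 7 passed as higher and 11 as lower. Of all 4195 rows of that fit, 4.39% passed as higher and 5.96% as lower.

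Sucrose synthase, which splits sucrose into fructose and the UDP-glucose used for cellulose, was 2-fold lower in the SCW phase without overlap in all 4 of its entries, against 4.02% of all rows. The 4 entries belonged to 2 probe numbers, each printed under 2 names, and their median difference was -1.55. GA_10dpa_fiberEST_10590 stood at -0.20, -0.55 and -1.58 at 8, 10 and 14 dpa, -1.97 at 17 dpa, and -2.85 and -2.68 at 21 and 24 dpa in the entry with 2 spots. The values went down from stage to stage within the PCW phase and were lowest at the SCW stages, a difference of -1.99 (SE 0.43, adjusted p = 0.132). Its entry with 6 spots gave a difference of -1.78 (SE 0.38, adjusted p = 0.129). GA_10dpa_fiberEST_00620 stood at -0.47, -0.39 and -1.13, then -0.99, then -1.60 and -1.73 in the entry with 6 spots, a difference of -1.01 (adjusted p = 0.156), and its other entry differed by -1.33 (adjusted p = 0.150). In the restricted fit, 3 of the 4 entries were tested and all 3 passed, with adjusted p-values of 0.0251, 0.0239 and 0.0409. With quantile normalization the median of the list was -0.80, with entries from -1.19 to -0.44.

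The described genes of cellulose synthesis overlapped between the phases in all 3 entries. The cellulose synthase catalytic subunit GA_10dpa_fiberEST_02992 ranged from 0.34 to 0.54 at the PCW stages, was 0.30 at 17 dpa, and stood at 0.46 and 0.84 at 21 and 24 dpa in the entry with 6 spots. The difference of 0.24 (SE 0.18, adjusted p = 0.446) and that of its other entry, -0.04 (SE 0.16, adjusted p = 0.883), had opposite signs. With 21 dpa alone they were 0.0457 and -0.19. The sign of the first turned with quantile normalization (-0.02) and that of the second without 8 dpa (0.02), without 21 dpa (0.10) and with 17 dpa counted as PCW (0.01). The membrane-anchored endo-1,4-beta-glucanase GA_10dpa_fiberEST_10639, whose relative KORRIGAN is needed for cellulose synthesis in Arabidopsis, was 0.39, 0.11 and 0.11, then 0.12, then 0.28 and 0.88, with a difference of 0.38 (SE 0.23, adjusted p = 0.361). Only its 24 dpa value lay above the PCW range, and at 21 dpa alone the difference was 0.08.

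Genes that loosen or remodel the primary wall did not share a direction. Of 5 entries, 2 were higher without overlap, 2 were lower without overlap and 1 overlapped, where 21.7% of all rows were higher and 25.3% lower. Their median difference was 0.41, which turned to -0.28 with quantile normalization. Expansin 1 (GA_10dpa_fiberEST_00974), a protein that loosens the wall without cutting its polymers, stood at 0.44, 0.47 and 1.26 at the PCW stages, 1.32 at 17 dpa, and 1.20 and 1.06 at the SCW stages. Its value at 14 dpa already matched those of the SCW stages, so the phases overlapped (difference 0.41, SE 0.29, adjusted p = 0.427, and 0.0144 with quantile normalization). Xyloglucan endotransglycosylase (GA_10dpa_fiberEST_12158), which cuts and rejoins the xyloglucan that tethers cellulose, was 1.22, 1.08 and 1.78, then 1.62, then 1.80 and 2.06. Its SCW values lay just above its 14 dpa value, with a difference of 0.57 (SE 0.26, adjusted p = 0.260) that was -0.28 with quantile normalization.

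The 2 beta-galactosidases, enzymes that remove galactose from wall polysaccharides, lay in opposite directions. The precursor GA_10dpa_fiberEST_03757 stood at 1.51, 1.18 and 1.16 at the PCW stages, 0.80 at 17 dpa, and -0.12 and -0.19 at the SCW stages. It was above its 5 dpa level throughout the PCW phase and close to that level in the SCW phase, a difference of -1.44 (SE 0.17, adjusted p = 0.0806). GA_10dpa_fiberEST_04269 was -0.92, -1.11 and -1.44, then -1.49, then -0.82 and -0.17, a difference of 0.66 (SE 0.27, adjusted p = 0.233), which was 0.34 with 21 dpa alone and 1.08 with quantile normalization. The putative monocopper oxidase precursor GA_10dpa_fiberEST_12232 was between 0.01 and 0.35 through 17 dpa and stood at -0.73 and -0.63 at 21 and 24 dpa. Its difference of -0.81 (SE 0.17, adjusted p = 0.124) passed in the restricted fit (adjusted p = 0.0218).

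**Figure D2:**
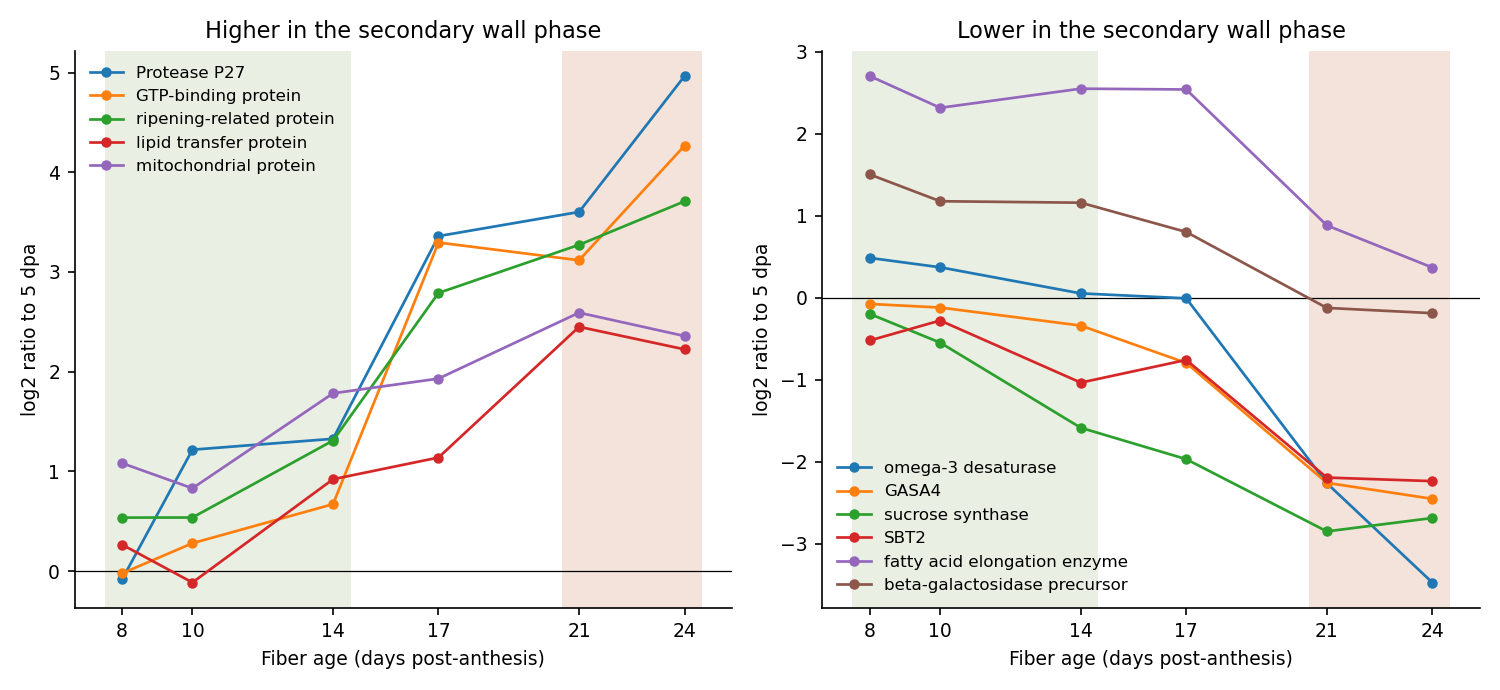
Log2 ratio to 5 dpa (vertical axis) by fiber age (horizontal axis) for 5 described genes that were higher and 6 that were lower in the SCW phase, 1 point a stage; green shading marks the PCW stages and orange shading the SCW stages. The GTP-binding protein reached 3.29 at 17 dpa, whereas the omega-3 desaturase was at -0.01 at 17 dpa and -2.26 at 21 dpa.

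Lipid genes held the lowest described row that did not overlap. Of 6 entries, 4 were lower without overlap and 2 higher, against 25.3% lower and 21.7% higher of all rows, with a median difference of -1.14. The omega-3 fatty acid desaturase of the endoplasmic reticulum (GA_10dpa_fiberEST_12708), which makes linolenic acid for membranes, was 0.49, 0.37 and 0.05 at the PCW stages, -0.01 at 17 dpa, and -2.26 and -3.47 at the SCW stages. It held near its 5 dpa level through 17 dpa and was 9.01-fold lower over the SCW stages, a difference of -3.17 (SE 0.39, adjusted p = 0.0806). The long chain fatty acid elongation enzyme GA_10dpa_fiberEST_01869 stood at 2.71, 2.32 and 2.55, then 2.54, then 0.88 and 0.37, a difference of -1.90 (SE 0.22, adjusted p = 0.0806). It stayed high from 8 to 17 dpa and was down at 21 dpa, and the difference passed in the restricted fit (adjusted p = 0.00838). With 17 dpa counted as SCW it was -1.26.

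A GDSL-motif lipase (GA_10dpa_fiberEST_10522), of a family of ester hydrolases, was 0.34, 0.07 and -0.13, then -0.51, then -1.26 and -1.94, and was lower at each stage than at the stage before (difference -1.69, SE 0.27, adjusted p = 0.101). The CER1-like protein, whose Arabidopsis relative acts in wax alkane synthesis, differed by -0.59 (-0.17 with quantile normalization) and passed in the restricted fit (adjusted p = 0.0463). The higher entries were a putative beta-ketoacyl-CoA synthase, of the enzymes that start fatty acid elongation, with a difference of 0.44 (0.0949 with quantile normalization), and the lipid transfer protein GA_10dpa_fiberEST_12134, of a family of small secreted proteins that bind lipids. It stood at 0.26, -0.12 and 0.92 at the PCW stages, 1.14 at 17 dpa, and 2.45 and 2.22 at 21 and 24 dpa. It was 3.94-fold higher (difference 1.98, SE 0.33, adjusted p = 0.104) and passed in the restricted fit (adjusted p = 0.0146).

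Small GTPases and their regulators, switches that direct vesicle traffic and other transport, were higher in 3 of 5 entries without overlap, lower in 1 and overlapping in 1. Of all rows, 21.7% were higher and 25.3% lower without overlap. The median of the list was 0.53, and it was -0.002 with quantile normalization. The GTP-binding protein GA_10dpa_fiberEST_07089 was -0.02, 0.28 and 0.67 at the PCW stages, 3.29 at 17 dpa, and 3.12 and 4.27 at the SCW stages. It was close to its 5 dpa level in early fiber and at the SCW level by 17 dpa, 10.4-fold higher over the SCW stages (difference 3.38, SE 0.40, adjusted p = 0.0806), and passed in the restricted fit (adjusted p = 0.00838). The Rab11C protein GA_10dpa_fiberEST_11669, of a GTPase group that acts in traffic to the cell surface, differed by 1.06 (adjusted p = 0.138), and a further Rab11C entry differed by 0.53 (adjusted p = 0.237), but with quantile normalization these were 0.0436 and -0.002. Of the redox list, ferritin 3, which stores iron, differed by 1.09, and by -0.09 with quantile normalization. A probable glutathione peroxidase differed by 1.13, with 0 of 12 files above the buffer, by 0.43 with 21 dpa alone and by -0.14 with quantile normalization. A glutathione S-transferase (GA_10dpa_fiberEST_11644) was lower at -1.94 (SE 0.30, adjusted p = 0.0997), and at -0.87 with quantile normalization. The median of that list was 1.09 and turned to -0.14 with quantile normalization.

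The tubulins, building blocks of the microtubules along which cellulose is laid down, were close to level. Beta-tubulin differed by 0.17 (0.331 with 21 dpa alone) and tubulin beta-1 by 0.33, and the phases overlapped in both. With quantile normalization the 2 differences were -0.34 and 0.0188. Actin (GA_10dpa_fiberEST_04501) stood at 0.74, -0.11 and -0.005, then -0.18, then -0.42 and -0.98, a difference of -0.91 (SE 0.33, adjusted p = 0.209). The lowest member of the list was the NPH3 domain containing protein-like row GA_10dpa_fiberEST_00949, matched through an actin-crosslinking domain in the description of its Arabidopsis relative. It was -0.87, -0.84 and -0.99 at the PCW stages, -0.94 at 17 dpa, and -2.87 and -3.87 at the SCW stages, so it was level through 17 dpa and then lower (difference -2.47, SE 0.32, adjusted p = 0.0806, and -1.52 with quantile normalization). Its spots lie at row 16, column 4 of their print block, and 7 of the 45 rows at that place of the blocks, itself included, were 2-fold lower, against a mean of 1.81 over the 264 places. The 5 others with a difference beyond -1.5 ranged from -2.53 to -1.67 and followed its 6 stage values with a Pearson r of at least 0.93 each, and none of the 5 has a description. The part of print position in this value was not tested.

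All 3 water channel genes were lower in the SCW phase without overlap, by 0.27 to 0.60 on the log2 scale, as were 25.3% of all rows, and none passed in either fit. Water channels carry the flow that keeps the elongating cell turgid. The tonoplast protein GA_10dpa_fiberEST_06183 was 2.07, 1.86 and 2.25 at the PCW stages, 2.13 at 17 dpa, and 1.68 and 1.24 at the SCW stages, the largest difference of the 3 at -0.60 (SE 0.21, adjusted p = 0.195), which was -0.38 with 21 dpa alone or with 17 dpa counted as SCW and -1.44 with quantile normalization. It remained above its 5 dpa level at every stage. The plasma membrane aquaporin PIP2-2 differed by -0.40 and the TIP26-1 protein by -0.27, or by -0.15 and -0.17 with 21 dpa alone.

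All 3 genes of the list of hormone-responsive small proteins were lower without overlap, as were 25.3% of all rows, with a median difference of -0.89. GASA4 (GA_10dpa_fiberEST_10842), a small cysteine-rich protein that responds to gibberellin in Arabidopsis, was -0.07, -0.12 and -0.34 at the PCW stages, -0.79 at 17 dpa, and -2.26 and -2.45 at the SCW stages. It went down at every step, the largest between 17 and 21 dpa, and was 4.52-fold lower over the SCW stages (difference -2.18, SE 0.16, adjusted p = 0.0768). In the restricted fit its adjusted p of 0.00421 was the smallest of all 4195 rows. A further gibberellin-regulated family protein differed by -0.89 (-0.57 with 21 dpa alone) and passed in the restricted fit (adjusted p = 0.0402). RD22, a dehydration-responsive gene in Arabidopsis, differed by -0.34 (-0.19 with 21 dpa alone) and did not (adjusted p = 0.161).

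Of 5 proteolysis entries, 2 were 2-fold higher, 2 were 2-fold lower and 1 overlapped, against 3.73% higher and 4.02% lower of all rows. Protease P27 (GA_10dpa_fiberEST_06430) stood at -0.08, 1.22 and 1.33 at the PCW stages, 3.36 at 17 dpa, and 3.60 and 4.96 at the SCW stages. It was 11-fold higher (difference 3.46, SE 0.61, adjusted p = 0.105) and passed in the restricted fit (adjusted p = 0.0154). A probe of the same description, GA_10dpa_fiberEST_06424, was 0.63, 1.65 and 2.06, then 2.65, then 3.05 and 2.87, with a difference of 1.51 (SE 0.44, adjusted p = 0.167, and 0.0510 in the restricted fit). Both probes stood above their 8 dpa value at every later stage, but with quantile normalization the difference of the second was 0.38. SBT2 (GA_10dpa_fiberEST_10417), a subtilisin-like protease, was -0.52, -0.28 and -1.03, then -0.76, then -2.19 and -2.23. It was lower by 1.60 (SE 0.25, adjusted p = 0.101) and passed in the restricted fit (adjusted p = 0.0133), with a difference of -0.95 after quantile normalization. GRO11 (GA_10dpa_fiberEST_00067), in the list through its protease-associated domain, was 0.45 at 21 dpa and -3.20 at 24 dpa, after 0.70 to 1.12 at the earlier stages, and its difference of -2.34 became -0.51 with 21 dpa alone.

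The ripening-related protein GA_10dpa_fiberEST_09677, of the major latex protein family and the only described late fiber gene among the GA_ rows, was higher at 17 dpa and later. Its values were 0.54, 0.54 and 1.31 at the PCW stages, 2.79 at 17 dpa, and 3.27 and 3.71 at the SCW stages. It was 6.48-fold higher (difference 2.70, SE 0.31, adjusted p = 0.0806) and passed in the restricted fit (adjusted p = 0.00838), with a difference of 1.69 after quantile normalization. A putative mitochondrial protein (GA_10dpa_fiberEST_09957) was 1.08, 0.83 and 1.78, then 1.93, then 2.59 and 2.36. Its difference of 1.24 (SE 0.32, adjusted p = 0.150) also passed in the restricted fit (adjusted p = 0.0373), but was 0.33 with quantile normalization. Outside the lists, 2 ABC transporters, membrane pumps driven by ATP that were picked here after their values were seen, passed as lower in that fit with differences of -1.32 (adjusted p = 0.0135) and -1.001 (adjusted p = 0.0149). A zinc-binding protein (GA_10dpa_fiberEST_04153) passed as higher, with 1.08 (adjusted p = 0.0149). So did the 6-spot entry of glyceraldehyde-3-phosphate dehydrogenase (GA_10dpa_fiberEST_03870), with 1.02 (adjusted p = 0.0411). With quantile normalization these 2 were 0.32 and 0.064.

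Several of the largest described differences came from spots that were weak in the deposited scanner files. The inositol trisphosphate 5/6-kinase family protein GA_10dpa_fiberEST_05939, which adds phosphate to soluble inositol phosphates, was 0.50, 0.90 and 1.61 at the PCW stages, 6.43 at 17 dpa, and 6.43 and 8.00 at the SCW stages. Its difference was 6.21 (SE 0.56, adjusted p = 0.0806), but its spots exceeded the buffer spots in 0 of the 12 deposited files. These files cover only a part of the arrays behind the ratio and do not show it above background. Cytochrome c oxidase subunit II, a part of the mitochondrial respiratory chain, differed by 3.13 (SE 0.46, adjusted p = 0.0948) with 7 of 12 files above the buffer, and the Yippee-like protein differed by 3.46 (SE 0.74, adjusted p = 0.129) with 5. RXW8 was -1.64 at 21 dpa and 3.28 at 24 dpa with 3 of 12 files above the buffer, and its difference of 3.31 was 0.85 with 21 dpa alone. The anthranilate N-hydroxycinnamoyl/benzoyltransferase GA_10dpa_fiberEST_10567, of a family that makes phenolic amides, differed by 2.81 (SE 0.80, adjusted p = 0.163) with 2 files, and by 1.46 with 21 dpa alone. The other member of its list, flavanone 3-hydroxylase, differed by -0.65, and by 0.0283 with quantile normalization. The oxylase-like protein differed by 1.29 (SE 0.41, adjusted p = 0.181) with 0 files, and by 0.61 with 21 dpa alone.

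Of 7 transcription and chromatin entries, 2 were higher without overlap, 3 lower and 2 overlapping, against 21.7% higher and 25.3% lower of all rows. Histone deacetylase 6 (GA_10dpa_fiberEST_03570), an enzyme that removes acetyl groups from histones, was 4.11, 4.18 and 4.81 at the PCW stages, 5.56 at 17 dpa, and -4.93 and 5.63 at the SCW stages. The 21 dpa value alone set its difference of -4.02 (SE 3.03, adjusted p = 0.448), which was 1.26 without it and -9.30 with 21 dpa alone, and its spots exceeded the buffer in 0 of 12 files. The transcription regulator GA_10dpa_fiberEST_12579 was -0.99, -0.74 and -0.96, then -1.63, then -1.88 and -3.30, a difference of -1.70 (SE 0.43, adjusted p = 0.150) that was -0.98 with 21 dpa alone and -0.79 with quantile normalization. Among calcium signalling genes, which act through calcium-binding proteins, the protein kinase GA_10dpa_fiberEST_00016 differed by -0.98 (SE 0.21, adjusted p = 0.131), or by -0.54 with quantile normalization. A further kinase differed by -0.58, or by -0.29 with 21 dpa alone, and calmodulin by 0.46. Of 4 translation entries, 1 was higher, 2 lower and 1 overlapping (21.7% and 25.3% of all rows), with a median of -0.42 that turned to 0.06 with 21 dpa alone. The member with the largest difference, the ethylene-responsive RNA helicase GA_10dpa_fiberEST_02353, was -0.53 at 21 dpa and -3.53 at 24 dpa, and its difference of -1.18 (SE 0.92, adjusted p = 0.460) was 0.31 with 21 dpa alone.

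**Figure D3:**
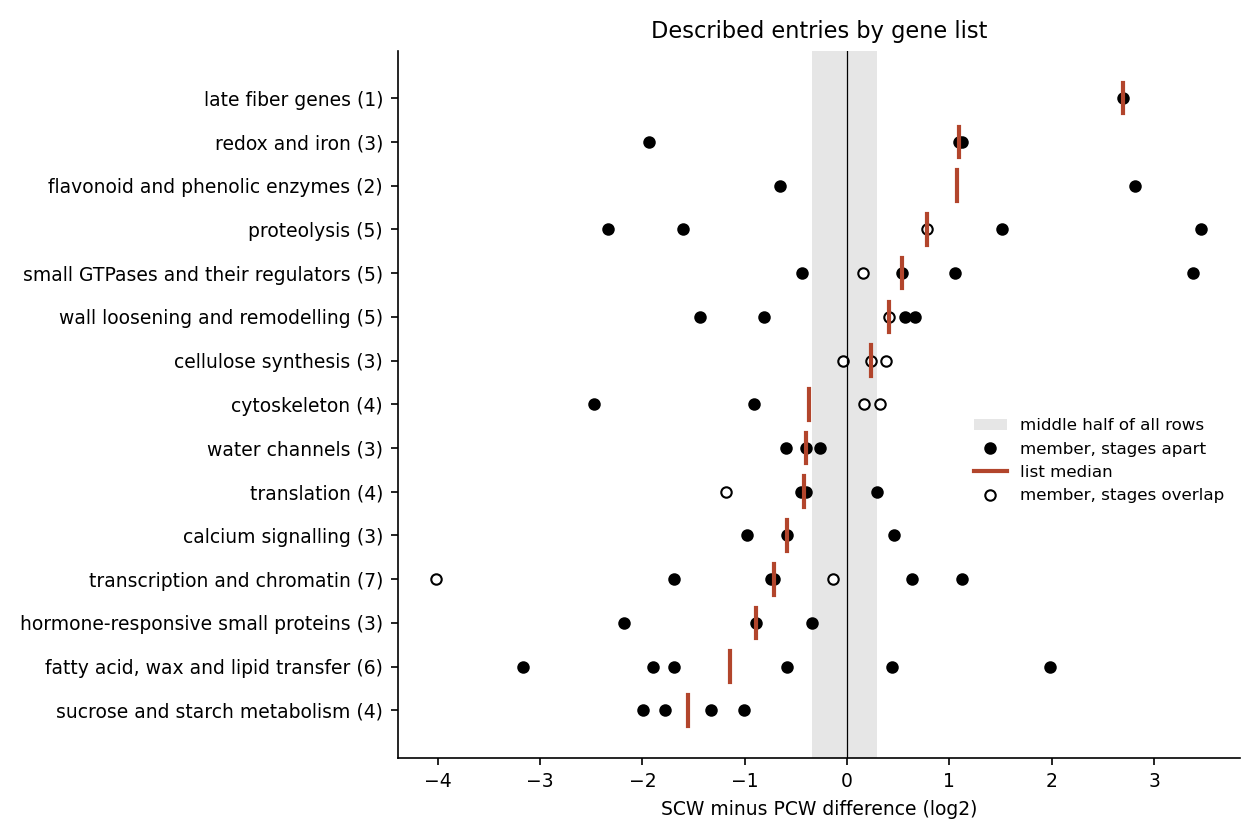
SCW minus PCW difference on the log2 scale (horizontal axis) for every described entry of 15 gene lists, with the number of entries in parentheses. Filled points are entries whose stages do not overlap, open points overlap, red bars are list medians and the grey band holds the middle 50% of all 11858 rows; the 4 sucrose synthase entries lie at -1.99 to -1.01, left of the band, and the 3 cellulose synthesis entries lie in or beside it.

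Rows without a description held the extremes of the whole table. GA_10dpa_fiberEST_09512, chosen after its values were seen, was -0.67, 1.19 and 1.12 at the PCW stages, 0.10 at 17 dpa, and 8.54 and 8.56 at the SCW stages. The values of the SCW stages were nearly equal and the difference of 8.01 (SE 0.62, adjusted p = 0.0768) was the highest of all rows, with 1 of 12 files above the buffer. GA_10dpa_fiberEST_03670, chosen in the same way, was -0.46, -1.28 and -2.02, then -2.77, then -4.57 and -6.74, the lowest difference of all rows at -4.40 (SE 0.77, adjusted p = 0.105). It went down at every stage, and 10 of 12 files were above the buffer.

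Most rows that were 2-fold apart without overlap left their 5 dpa level in the SCW phase and not in the PCW phase. This was not counted over all rows. Of the 442 higher rows, 286 (64.7%) had a PCW mean within 2-fold of 5 dpa and an SCW mean at least 2-fold above it, and 21 had a PCW mean at least 2-fold below 5 dpa and an SCW mean within 2-fold of it. Of the 477 lower rows, 324 (67.9%) had a PCW mean within 2-fold and an SCW mean at least 2-fold below 5 dpa, and 32 had a PCW mean at least 2-fold above and returned to within 2-fold, as the beta-galactosidase precursor did. The phase means lay 2-fold from 5 dpa on opposite sides in 9 and 4 rows, and both on the side of the SCW phase in 43 and 22. Both stayed within 2-fold of 5 dpa in 83 higher rows (18.8%) and 95 lower rows (19.9%). The median log2 ratios of the higher rows were -0.11, 0.16 and 0.12 at the PCW stages, 0.66 at 17 dpa, and 1.25 and 1.84 at the SCW stages. Those of the lower rows were 0.15, -0.04 and -0.25, then -0.49, then -1.08 and -1.78.

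The 17 dpa profile, which took no part in choosing these rows, was beyond every PCW stage on the side of the SCW phase in 277 of the higher rows (62.7%) and in 348 of the lower rows (73.0%). It had reached or passed the nearest SCW stage in 101 and 52 of these rows, so it lay between the phases in 176 higher rows (39.8%) and 296 lower rows (62.1%). The median place of 17 dpa on the way from the PCW mean to the SCW mean was 39.2% for higher rows and 34.6% for lower rows. Over all 11858 rows this median was 39.4%, so such a place was not particular to these rows. The 17 dpa value was nearer to the SCW mean in 183 of the higher rows (41.4%) and 127 of the lower rows (26.6%). These shares of 17 dpa beyond the PCW stages, between the phases or nearer to SCW were not counted over all rows. The largest step toward the SCW level fell between 14 and 17 dpa in 106 higher rows (24.0%) and 26 lower rows (5.45%). It fell between 17 and 21 dpa in 138 (31.2%) and 178 (37.3%), and between 21 and 24 dpa in 128 (29%) and 200 (41.9%). The interval of the largest step was not counted over all rows either. The values kept 1 order through all 6 stages in 53 higher rows (12%) and 174 lower rows (36.5%). Over all 11858 rows, 254 (2.14%) rose and 573 (4.83%) fell at every step. A row in such an order cannot overlap between the phases, so choosing rows without overlap favours it by itself. The 254 rising rows all lie among the 2573 rows that were higher without overlap, and the 573 falling rows among the 3003 lower ones. The shares over all rows are therefore not a fair base for the 12% and 36.5%. The difference between higher and lower rows in the shares given here was not tested.

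**Figure D4:**
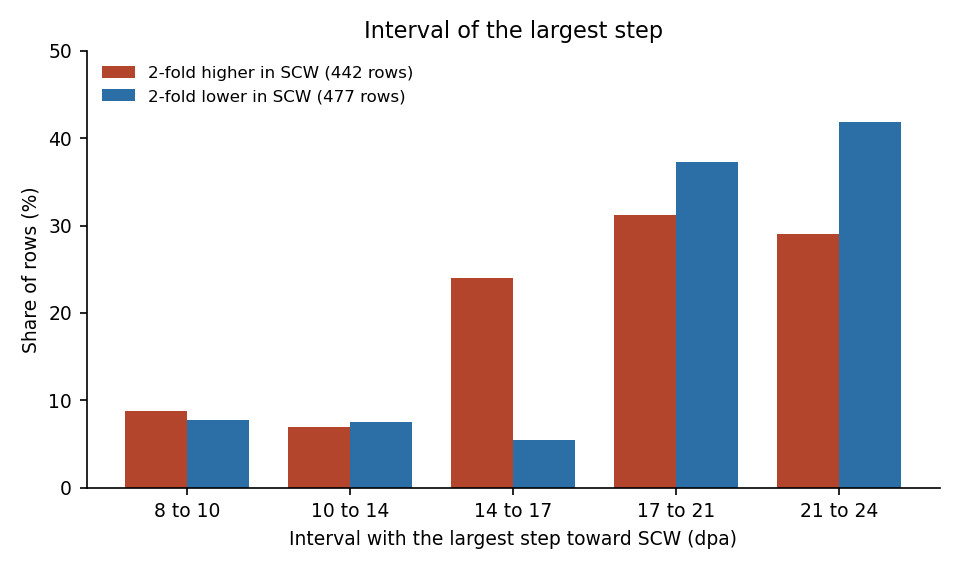
Share of rows in percent (vertical axis, from 0) by the interval between neighbouring stages that held the largest step toward the SCW level (horizontal axis), for the 442 rows 2-fold higher (red) and the 477 rows 2-fold lower (blue) without overlap. The interval from 14 to 17 dpa held 24.0% of the higher and 5.45% of the lower rows.

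Signal strength differed between the rows that were apart and the rest. Among the 4195 rows above the buffer in all 12 files, 94 were 2-fold higher and 114 were 2-fold lower without overlap, 4.96% together. Among the 7345 rows above it in 1 to 11 files, 285 were higher and 353 lower, 8.69% together. Among the 318 rows above it in 0 files, 63 were higher and 10 lower, 23.0% together. The part of weak signal in these differences was not tested. The genes named above with all 12 files above the buffer include both P27 probes, the GTP-binding protein, the ripening-related protein, the lipid transfer protein, GASA4, SBT2, the fatty acid elongation enzyme and 3 of the 4 sucrose synthase entries.

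**Figure D5:**
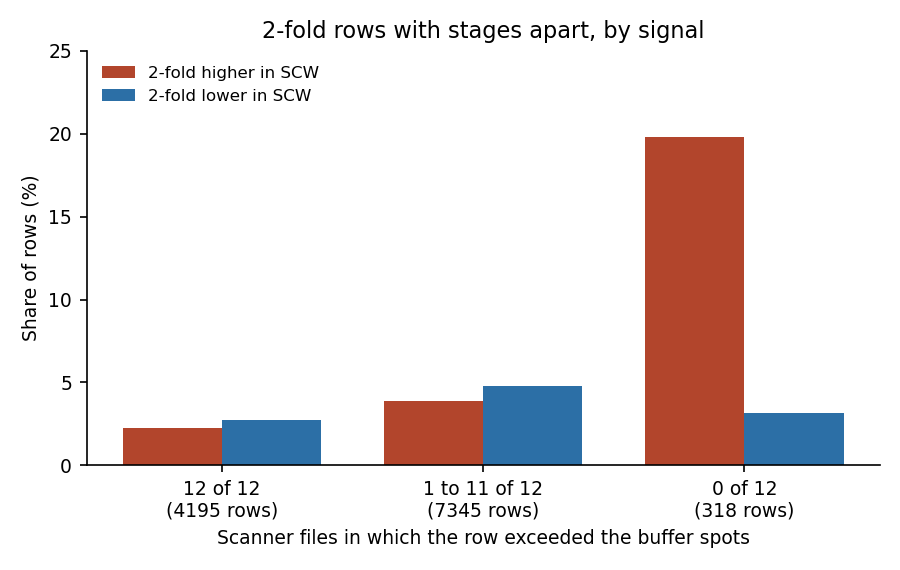
Share of rows in percent (vertical axis, from 0) that were 2-fold higher (red) or 2-fold lower (blue) in the SCW phase without overlap, by the number of scanner files in which the row exceeded the buffer spots (horizontal axis). In the class of 318 rows with 0 files, 63 were higher and 10 lower.

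Probe numbers printed under 2 names were measured more than once. The 2 entries of the 17 such numbers differed by a median of 0.32 in SCW minus PCW, 12 pairs differed by less than 0.5 and 2 by at least 1, the largest gap being 2.75. The sign was the same in 11 pairs. Both entries were 2-fold apart without overlap in 2 pairs, which are the sucrose synthases, and 1 entry alone in 2 pairs. Among the latter was the cytosolic glyceraldehyde-3-phosphate dehydrogenase of glycolysis, GA_10dpa_fiberEST_03870, with differences of 1.02 and 0.33. With quantile normalization these were 0.064 and -0.30.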

How the data were processed

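Fiber of Gossypium hirsutum cv. TM1 was grown in a greenhouse in a randomized block design, and RNA from each stage was hybridized to spotted oligonucleotide arrays in a double loop with dye swaps. According to the methods, the authors flagged poor spots, subtracted local background, removed spots near the buffer spots and divergent dye swaps, applied lowess normalization and fitted LIMMA with the correlation of duplicate spots; its version is not given in the sources used here. The deposited values are log2 coefficients against 5 dpa, 1 profile a stage from 1 joint fit, so the profiles are not fully independent. The deposited scanner intensity values (12 files, 7 arrays) were used only for signal over background: a row exceeded the buffer where its background-subtracted signal passed the buffer median plus 3 MAD. The methods describe more hybridizations for the cultivar than these 7 arrays, so the files cover only a part of the data behind the ratios. A file in which all spots of a row were flagged counted as not above the buffer. The dye of each stage in these files is not given in the sources used here. Signal over background and the number of arrays limit the precision.

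The SCW minus PCW difference was tested with lmFit and eBayes (limma 3.58.1, R 4.3.3) on the 5 profiles, with Benjamini-Hochberg adjustment. The script was tested on simulated data. Genes named were the 12 highest and 12 lowest described rows among those at least 2-fold different without overlap. Also named were the members of the cellulose, sucrose and wall lists, the largest of each other list and called rows. Members, lists and tests were chosen with earlier results of these data known. Alternatives were leaving out each stage, moving 17 dpa, other scaling, buffer filters, moderation settings and fold limits. Probe descriptions were taken from the study's annotation, and the stages' replicate numbers pair nothing.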

Additional observations from a re-analysis of the deposited data

How the results depend on the processing

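The number of calls depended strongly on the processing. Of 342 values of 38 named differences under other settings, 309 kept their direction and their side of the threshold, 21 newly passed it, 5 no longer did (all of GA_10dpa_fiberEST_00742) and 7 turned their sign. Since most of these genes were named for their large differences and did not pass the test, this says little about stability, and 53 values moved in size by more than 1.5 times or turned, 20 of them with quantile normalization and 12 without 24 dpa. The cause of these changes was not tested. No paired analysis was possible because the stages of the phases share no number that pairs them.

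Calls higher in SCW were 5 with 17 dpa counted with PCW, 0 with 17 dpa counted with SCW and 0 with quantile normalization. They were 0 with a trend in eBayes, fitted to the log2 ratios, and 0 to 838 when a stage was left out. Calls lower were 0 to 978 when a stage was left out. The high counts both came from leaving out 21 dpa, where 24 dpa stood alone for its phase and was assumed to vary like the PCW stages. With rows above the buffer median plus 3 MAD in every file, 184 rows were called higher and 250 lower, and 94 and 114 were 2-fold apart. With the buffer mean plus 3 SD, only 203 rows were tested, of which 14 (6.9%) were called higher and 38 (18.7%) lower. The shares with the median plus 3 MAD were 4.39% and 5.96%. Of the 203 rows, 9 and 11 were 2-fold apart. Rows 2-fold higher without overlap numbered 229 with 17 dpa counted with SCW, 968 at 1.5-fold, 159 at 3-fold and 394 to 1123 with a stage left out. Rows 2-fold lower numbered 222, 1321, 170 and 431 to 1111. Without 21 dpa, 418 and 459 of the rows counted with all stages were among them.

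The cellulose synthase GA_10dpa_fiberEST_02992 turned to -0.0193 in its 6-spot entry with quantile normalization. Its 2-spot entry turned to 0.0225 without 8 dpa, 0.10 without 21 dpa and 0.0115 with 17 dpa counted with PCW, and ranged from -0.19 to 0.10 with a stage left out. Xyloglucan endotransglycosylase turned to -0.28 with quantile normalization, histone deacetylase 6 to 1.26 without 21 dpa (-9.30 to 1.26 with a stage left out), and the RNA helicase to 0.31 without 24 dpa (-2.68 to 0.31).

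Quantile normalization turned the list medians of cellulose synthesis (-0.0193), redox (-0.14), small GTPases (-0.00178) and wall loosening (-0.28). It moved those of calcium signalling to -0.17, lipids to -0.74, hormone-responsive proteins to -0.51, late fiber genes to 1.69, proteolysis to 0.38, sucrose metabolism to -0.80, transcription to -0.28, translation to -0.0325 and water channels to -0.74. Counting 17 dpa with SCW moved lipids to -0.88, hormone-responsive proteins to -0.65, redox to 0.71 and water channels to -0.25, and counting it with PCW moved late fiber genes to 2.20. With a stage left out, the median ranged from -0.88 to -0.29 for calcium signalling, from 0.0457 to 0.42 for cellulose synthesis, from 0.40 to 1.76 for phenolic enzymes and from -1.21 to -0.57 for hormone-responsive proteins. It ranged from 0.15 to 1.41 for proteolysis, from 0.43 to 1.28 for redox, from -0.82 to -0.32 for transcription, from -0.69 to 0.0617 for translation and from -0.64 to -0.17 for water channels.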

Other observations

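Control features outside the GA_ rows gave values in the same profiles. Features for transgenes, which wild-type fiber does not carry, differed between the phases by 1.42 for GUS, 0.48 for aaacC1, -0.35 for hph, -0.47 for GFP and -0.66 for npt-II. GUS stayed between -0.46 and -0.17 from 8 to 21 dpa and was 2.66 at 24 dpa. The aaacC1 feature was -4.05 at 21 dpa and 3.58 at 24 dpa, and exceeded the buffer spots in 2 of 12 files. Control features with names starting A0 differed by more, from -3.10 (A021047_01) to 3.42 (A001934_01), both without overlap. These exceeded the buffer spots in 11 and 1 of 12 files. Some of the other A0 features overlapped between the phases. Their names do not state what they measure.

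The shares of higher and lower rows differed between the kinds of second names that rows carry. Of 5416 rows named CON, 244 (4.51%) were 2-fold higher without overlap and 164 (3.03%) were 2-fold lower. Of 2732 rows named Ed_XGI, 69 (2.53%) were higher and 143 (5.23%) lower. Of 1247 rows named Ed_contig, 29 (2.33%) and 61 (4.89%) were, and of 2446 rows named GA__Ed, 98 (4.01%) and 107 (4.37%) were. These shares were not tested, and what the names mark is not given in the sources used here.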
